A study of Mus musculus with 40 samples.

Results

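Nes, Otx2, Vim, Tubb3 and Mapt are widely used markers of neural progenitors and neurons, and their transcripts were followed in whole mouse embryos exposed to an alkylating drug. They were taken as every probe whose platform annotation gives exactly 1 gene symbol and whose symbol is one of these 5 genes. Each gene had 1 such probe, 4 on array design 1 (Nes, Otx2, Tubb3 and Mapt) and 1 on array design 2 (Vim), out of 6970 genes named on both designs. Treated embryos were kept for 5 h at 37 °C in medium that held 40 µM 4-hydroperoxycyclophosphamide throughout, a pre-activated form of the drug cyclophosphamide, and control embryos were kept at 37 °C and left untreated. The 40 samples are 2-colour arrays that set treated against control embryos, and all belong to 1 group of treated-over-control comparisons. Each array design had 20 arrays from 5 replicates, and every replicate had both dye orientations and 2 readouts of each slide. The sources used here do not give the age or strain of the embryos, or how many made up a sample. Nothing in the labels says that the replicates came from separate cultures, so the spread behind each p-value may be technical.

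Nestin (Nes) and vimentin (Vim) are intermediate filament proteins of the neural tube's dividing progenitors, and Vim is also abundant in mesenchyme and neural crest. Otx2 is a homeodomain transcription factor that patterns the forebrain and midbrain. As progenitors leave the cell cycle and become neurons, they switch on the beta-tubulin Tubb3 and the microtubule-associated protein tau (Mapt). Cyclophosphamide metabolites crosslink DNA, and the early neural tube is known as a tissue in which they cause cell death. The comparison asked whether neural transcripts shifted within 5 h, and in whole-embryo RNA fewer neural cells and less RNA per neural cell cannot be told apart. The values are ratios without levels, so whether the markers were detected at all could not be checked.

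Every value is the log2 ratio of treated over control embryos, relative to the median probe of its array, averaged over the arrays of a replicate. The direction is likely, not stated: it rests on the channel order in the labels and on Ccng1, a p53 target, whose ratios were above 0 on 38 of 38 readings on array design 1 and 20 of 20 on array design 2. Read the other way, every sign here turns and the sizes and p-values stay. Before centring, array medians ran from −1.53 to 0.83 on array design 1 and from −1.73 to 1.69 on array design 2. Single arrays of one dye orientation correlated as low as −0.31 and −0.54, while replicate values correlated at 0.257 to 0.679 on array design 1 and at 0.354 to 0.686 on array design 2. One readout stood apart, the B readout of replicate 4 on array design 1 with treated embryos in channel 2, which lacked 786 values (10.2% of its spots) and had an SD of 1.13. Results that rest on it are given with and without it, or are marked as including it.

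No neural marker passed the test as fitted. Of the 4 markers on array design 1, 0 passed a limma adjusted p of 0.05, against 0.651% of all probes there (50 of 7680), and 1, Tubb3, had an unadjusted p under 0.05, against 33% of all probes. Vim did not pass on array design 2, against 27.8% of all probes called (2114 of 7599), and its unadjusted p was also above 0.05. The mean ratios of Nes, Vim and Tubb3 were above 0 and those of Otx2 and Mapt were below 0. Mapt had 1 sign in all 5 replicates, which 31.1% of the probes of array design 1 also had, and Vim did not, against 33.8% on array design 2. Without centring, 3 of 4 markers on array design 1 and Vim on array design 2 passed as lower, in fits that called 60.1% and 87.6% of all probes, nearly all lower.

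**Figure D1:**
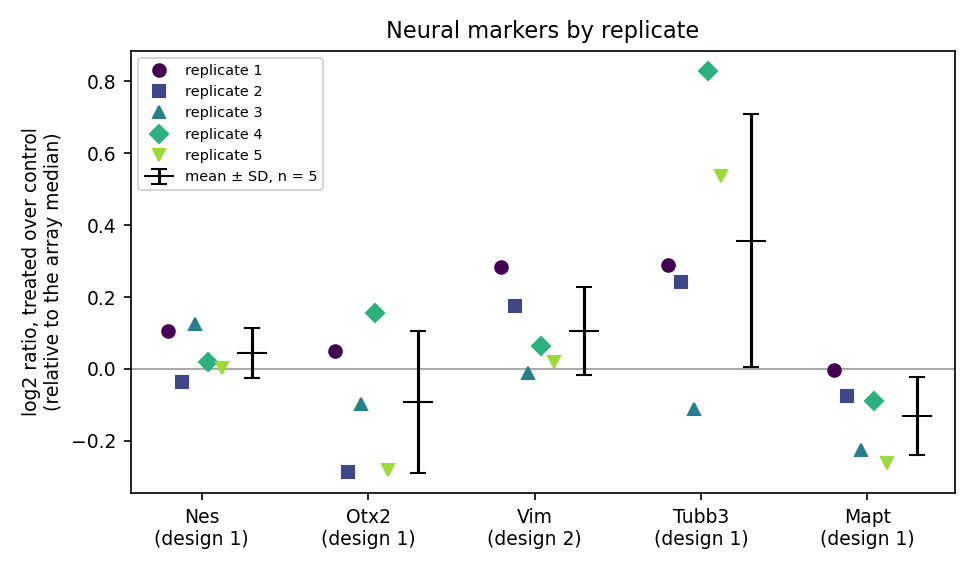
Log2 ratio of treated over control embryos for each neural marker, relative to the array median; each point is 1 replicate and the bars give the mean ± SD (n = 5). Nes lies close to 0 in every replicate, Mapt lies below 0 in all 5, and Tubb3 spreads from −0.11 in replicate 3 to 0.83 in replicate 4.

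Nes, the progenitor intermediate filament, had log2 ratios of 0.11, −0.036, 0.13, 0.019 and 0.0013 in replicates 1 to 5. Replicates 1 and 3 were the high ones and replicate 2 lay below 0, so the values straddled 0 within a narrow range. The mean was 0.043 ± 0.070 (SD, n = 5), with a 95% interval of −0.073 to 0.16, and the limma adjusted p was 0.590. That interval spans ratios of 0.950 to 1.12. The spread of Nes between replicates was among the smallest on the array, smaller than that of all but 9.43% of the probes.

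Within each replicate, however, the Nes ratio depended on which channel held the treated embryos. With treated embryos in channel 1 it was 0.64, 0.45, 0.44, 0.24 and 0.29 in replicates 1 to 5. With treated embryos in channel 2 it was −0.43, −0.53, −0.19, −0.20 and −0.29. The orientations did not overlap: all 10 arrays of the first lay above 0, and 0 of 10 of the second did. How many of all probes separate in this way was not counted. The part that follows the dye was 0.37 ± 0.14 (SD, n = 5), from 0.22 to 0.53, and it cancels in the mean of both orientations. Taken alone, the channel 1 arrays gave a called rise of Nes (0.41 ± 0.16, SD, n = 5, limma adjusted p = 0.0259), in a fit that called 30.3% of all probes. The channel 2 arrays gave −0.33 ± 0.15 (SD, n = 5, limma adjusted p = 0.0588), with 14.4% of all probes called.

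Otx2, the forebrain and midbrain regulator, had log2 ratios of 0.051, −0.29, −0.099, 0.16 and −0.28 in replicates 1 to 5. Replicates 1 and 4 lay above 0 and the other 3 below. The mean was −0.092 ± 0.20 (SD, n = 5), with a 95% interval of −0.27 to 0.085 (ratios of 0.830 to 1.06), and the limma adjusted p was 0.437. Its dye part was −0.097 ± 0.17 (SD, n = 5), of both signs among the replicates. Both readouts of a slide differed by a median of 0.15 for Otx2, and by as much as 1.08 on the slide of replicate 5 with treated embryos in channel 1.

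Vim had log2 ratios of 0.28, 0.18, −0.011, 0.064 and 0.019 in replicates 1 to 5. Replicates 1 and 2 were the high ones, replicate 3 lay just below 0, and the others lay just above it. The mean was 0.11 ± 0.12 (SD, n = 5), a 1.08-fold ratio with a 95% interval of 0.993 to 1.17, and the limma adjusted p was 0.156. The dye part of Vim averaged 0.031 but ran from −0.61 in replicate 2 to 0.34 in replicate 1, so single arrays of Vim reached −0.45 and 0.91. Over its 20 arrays the median was 0.014, and 11 lay above 0.

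Tubb3, the beta-tubulin of young neurons, had the largest mean ratio of the 5 markers. Its log2 ratios were 0.29, 0.24, −0.11, 0.83 and 0.54 in replicates 1 to 5, so 4 replicates lay above 0 and replicate 3 lay below. The mean was 0.36 ± 0.35 (SD, n = 5), a 1.28-fold ratio with a 95% interval of 1.06 to 1.55, and the limma p was 0.0169 before and 0.0821 after adjustment. It stood at the 95.7th percentile of all probes by its ratio (4.31 with the ratio read the other way, when its mean would be the lowest of the 5 markers) and at the 95.5th by its SD. The single arrays ran from −0.43 through a median of 0.34 to 2.04, with 14 of 20 above 0.

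The highest of those arrays was the incomplete readout of replicate 4. Without it, replicate 4 of Tubb3 was 0.44, the mean was 0.28 ± 0.25 (SD, n = 5), and the probe passed with a limma adjusted p of 0.0333, in a fit that called 15.9% of all probes (1224 of 7680) in place of 0.651%. Tubb3 also passed when single arrays entered the fit with a replicate block (mean 0.36, limma adjusted p = 0.0330, with 11.6% of all probes called). It did not pass when the smooth trend of the treatment part on the probes' dye profile was removed (0.082 ± 0.14, SD, n = 5, limma adjusted p = 0.516, with 0.781% of all probes called).

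Mapt, which encodes tau, had log2 ratios of −0.0029, −0.075, −0.22, −0.088 and −0.26 in replicates 1 to 5. All lay below 0, replicates 3 and 5 farthest. The mean was −0.13 ± 0.11 (SD, n = 5), with a 95% interval of −0.26 to 0.00095, and the limma p was 0.0513 before and 0.154 after adjustment. Without the incomplete readout, replicate 4 became 0.16 and the mean −0.080 ± 0.17 (SD, n = 5, limma adjusted p = 0.427), so the agreement of sign rested on that readout. With treated embryos in channel 1 Mapt averaged −0.31 ± 0.37, and with treated embryos in channel 2 it averaged 0.045 ± 0.27 (SD, n = 5 each).

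**Figure D2:**
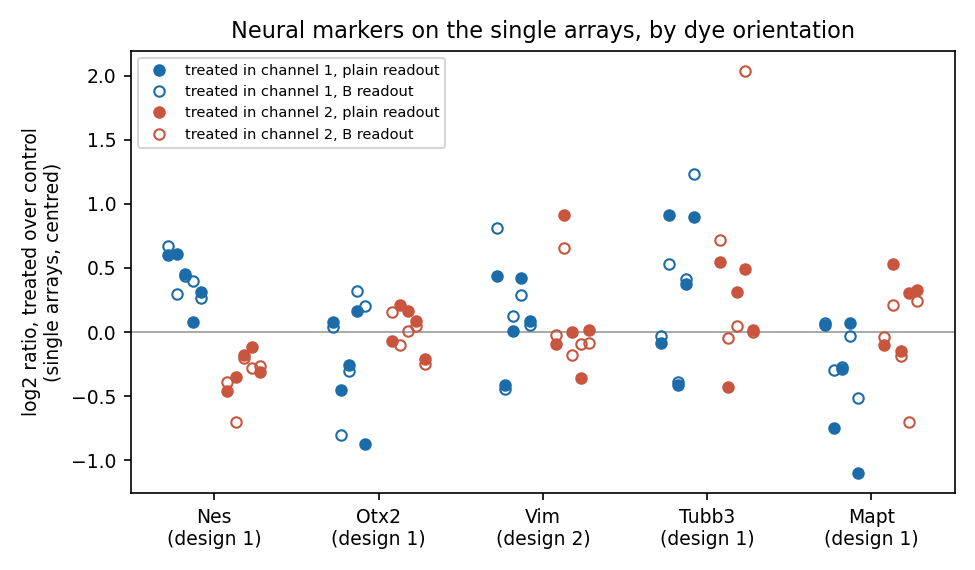
Log2 ratio of treated over control embryos on each single array, centred on the array median, with blue for treated embryos in channel 1, red for channel 2, filled for plain and open for B readouts. For Nes the 10 blue points lie above 0 and the 10 red points below, while the other markers' orientations overlap; the Tubb3 point at 2.04 is the incomplete readout of replicate 4.

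The markers on array design 1 were compared in pairs. Tubb3 exceeded Mapt in 5 of 5 replicates, by 0.49 ± 0.35 on the log2 scale (SD, n = 5), and Nes exceeded Mapt in 5 of 5, by 0.17 ± 0.13 (SD, n = 5). An exact two-sided sign-flip test gave p = 0.0625 for both, the smallest that 5 replicates allow. After Benjamini-Hochberg adjustment over the 6 pairs of markers on array design 1 it was 0.188. All pair values include the incomplete readout. Without it replicate 4 was 0.060 for Nes, 0.16 for Mapt and 0.44 for Tubb3. Nes then no longer exceeded Mapt in that replicate, so its 5 of 5 rested on that readout. Tubb3 exceeded Nes by 0.31 ± 0.39 and Otx2 by 0.45 ± 0.34 (SD, n = 5), each in 4 of 5 replicates (exact p = 0.188 and 0.125). Nes minus Otx2 was 0.14 ± 0.18 and Otx2 minus Mapt 0.038 ± 0.17 (SD, n = 5), with exact p of 0.188 and 0.625. With this number of replicates no pair could pass 0.05. The means of Tubb3 and Mapt lay on opposite sides of 0 as fitted, but neither had passed, and with the dye-profile trend removed both lay above 0, at 0.082 and 0.027. These are differences of ratios, not of levels.

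Tubb3 was set beside the other beta-tubulin probes, since beta-tubulins are related in sequence and a probe may bind the transcript of another member. Whether that happened here was not tested. The other beta-tubulins on array design 1 were 9 probes of Tubb5, Tubb4b, Tubb2b and Tubb6, of which Tubb5 and Tubb4b are made in most cells and Tubb2b in neural tissue. Their ratios ran from 0.27 to 0.68 with a median of 0.29, and 0 of 9 passed. Replicate by replicate their medians were 0.27, 0.21, −0.10, 0.50 and 0.59, against 0.29, 0.24, −0.11, 0.83 and 0.54 for Tubb3, so replicate 3 was the low one in both. Without the incomplete readout, in which 7 of the 9 had no value, replicate 4 was 0.44 for Tubb3 and 0.42 to 0.60 for the others.

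Without that readout the root mean square difference over replicates between Tubb3 and each of the 9 was 0.022 to 0.13, and the median over all 4748 named probes was 0.40. With it these were 0.15 to 0.70 and 0.48. In the same fit without the readout 6 of the 9 passed, against 15.9% of all probes, with ratios of 0.22 to 0.41 over all 9. With the dye-profile trend removed 0 of 9 passed and the ratios were 0.013 to 0.17. Tubb5 had 3 probes on array design 2, at 0.27, 0.27 and 0.13, and the first 2 passed (limma adjusted p = 0.0017 and 0.0019), though without centring they were at −0.16 and did not pass. With the trend removed there they were −0.14 to −0.011 and 0 passed.

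**Figure D3:**
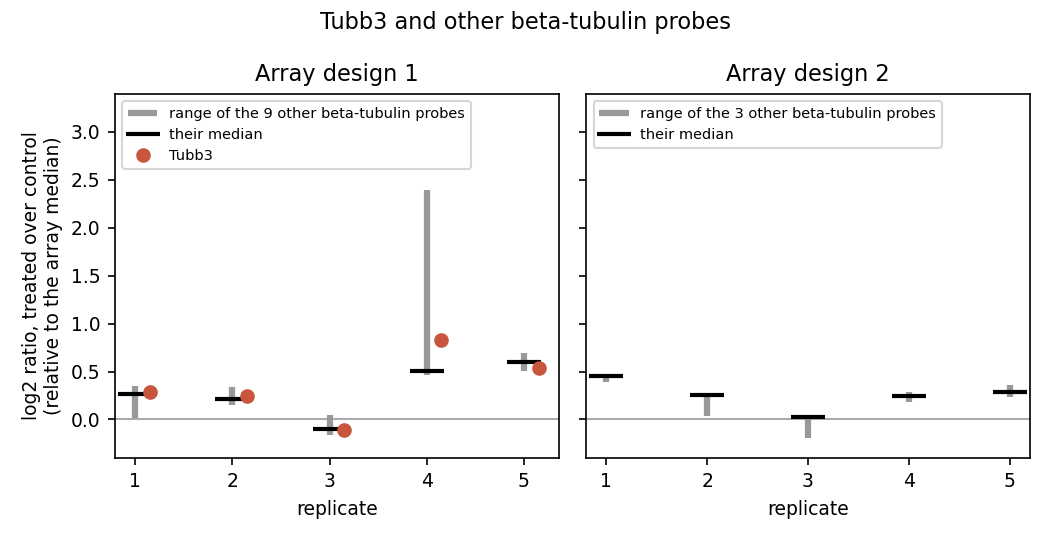
Log2 ratio of treated over control embryos by replicate, relative to the array median: grey bars span the other beta-tubulin probes, black lines are their median and red points are Tubb3, which is on array design 1. Tubb3 lies at or near the median of the others in replicates 1, 2, 3 and 5 and above it in replicate 4, where the incomplete readout lifts both the red point and the top of the bar.

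Other genes of neural progenitors were few on array design 1, with 6 probes of 2 genes out of a list of 41, and 0 passed. The median of the 6 was −0.046, against 0.0049 over all probes. Ptprz1, a receptor phosphatase of radial glia, came nearest at −0.15 ± 0.05 (SD, n = 5, limma adjusted p = 0.0795), and its other 4 probes did not pass. Array design 2 held 15 probes of 12 listed genes, of which 1 rose and 1 fell, against 19.8% and 8.07% of all probes there, with a median of 0.0025 against 0.017 over all probes. Ptn, the secreted growth factor pleiotrophin, rose by 0.24 ± 0.09 (SD, n = 5, limma adjusted p = 0.0024), and without centring it was at −0.19 and did not pass. Numb, which restrains Notch signalling in dividing progenitors, fell by 0.14 ± 0.07 on the log2 scale (SD, n = 5, limma adjusted p = 0.0492). The other 13 probes there did not pass and ran from −0.081 for Slc1a3 to 0.14 for Nr2f1. Also above 0 were Mdk and another Nr2f1 probe at 0.13, Sox21, Prom1 and Cdh2 at 0.038, 0.037 and 0.0025, and an Hmga2 probe at 0.026. Also below 0 were Ptprz1, Msi2 and Gli3 at −0.078, −0.060 and −0.056, and the remaining Hmga2 probes at −0.011 and −0.015.

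Of the neuron genes, 13 probes of 10 genes out of a list of 61 were on array design 1, and 0 passed, with a median of 0.079. Marcksl1, a membrane and actin regulator of growing neurons, had the smallest p, at 0.37 ± 0.16 (SD, n = 5, limma adjusted p = 0.0516). Without the incomplete readout 4 of the 13 rose, namely both Marcksl1 probes, Tubb2b and Elavl2, in a fit that called 781 of 7680 probes higher. With the dye-profile trend removed 0 of the 13 passed, with Elavl2 at −0.065, and the Elavl2 probe on array design 2 was at −0.14 (limma adjusted p = 0.0630). On array design 2, 2 of 9 probes rose and 1 fell, a share near the 19.8% and 8.07% of all probes, with a median of 0.039. Dpysl2, a growth cone protein, rose by 0.19 ± 0.11 and Uchl1, an abundant neuronal ubiquitin hydrolase, by 0.15 ± 0.13, while Kif3a, a kinesin motor, fell by 0.16 ± 0.12 on the log2 scale (SD, n = 5, limma adjusted p = 0.0152, 0.0478 and 0.0421). Without centring all 9 probes were called lower, Dpysl2 (−0.24) and Uchl1 (−0.28) among them. That fit called 87.6% of all probes, nearly all lower. Uchl1 on array design 1 was at 0.14 and did not pass (limma adjusted p = 0.115).

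Genes that mark regions of the brain had 3 probes on array design 1, of which 0 passed, with a median of 0.041. Of the 7 probes on array design 2, 1 rose and 1 fell, against 19.8% and 8.07% of all probes, with a median of −0.12. The one that rose was Nr2f2, a nuclear receptor of forebrain and mesenchyme, at 0.36 ± 0.13 (SD, n = 5, limma adjusted p = 5.8e-05), and without centring it was at −0.071 and did not pass. The one that fell was a probe of the homeobox gene Meis1, at −0.29 ± 0.14 (SD, n = 5, limma adjusted p = 0.00063), and its other 2 probes did not pass. Emx2, a regulator of the dorsal forebrain, was at −0.12 ± 0.04 (SD, n = 5) and did not pass (limma adjusted p = 0.0792). It was below 0 in all 5 replicates, and 5 of these 7 probes had 1 sign in all replicates, against 33.8% of all probes. With the dye-profile trend removed Emx2 was at −0.045 (limma adjusted p = 0.450).

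With the dye-profile trend removed, that Meis1 probe passed on array design 2 (−0.35, limma adjusted p = 0.0016). The other 2 Meis1 probes were at −0.031 and 0.019 and did not pass, so the probes of this gene disagreed. The other neural probes named as risen or fallen there did not pass. Ptn was then at 0.090, Numb at −0.027, Dpysl2 at −0.021, Uchl1 at 0.040, the Kif3a probe at −0.039 and Nr2f2 at 0.12. In that fit the progenitor list had 3 probes called lower, all of Hmga2, a chromatin protein of immature cells, at −0.35 to −0.34. The neuron list had 2 called lower, a probe of Marcks and another probe of Kif3a. Before that step the Hmga2 probes were at 0.026, −0.011 and −0.015. The Marcks probe called lower had been at −0.073 and that Kif3a probe at −0.072, and none of these had passed. The other Marcks probe there was at 0.060 before that step and at −0.11 after it, and passed in neither fit. Meis2, also a homeobox gene, was called lower at −0.22 with the trend removed, against −0.044 before. The share of all probes called on array design 2 was 5.01% in that fit.

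Vim is also a mesenchymal gene. Of the neural crest and mesenchyme list, 7 of 15 probes on array design 2 rose and 1 fell, against 19.8% and 8.07% of all probes, with a median of 0.085. Without centring 0 were called higher and 12 lower, with a median of −0.34, in a fit that called 87.6% of all probes, nearly all lower. Sparc, a matrix protein, rose by 0.44 ± 0.08, Col1a1, a fibrillar collagen, by 0.36 ± 0.16 and Fn1, fibronectin, by 0.21 ± 0.11 (SD, n = 5, limma adjusted p = 3.5e-06, 8.7e-05 and 0.0082), but without centring Fn1 was called lower (−0.22, limma adjusted p = 0.0436) and Sparc and Col1a1 did not pass (0.0070 and −0.065). Of the 4 probes of the collagen Col3a1, 2 rose (0.25 and 0.20), 1 fell (−0.23) and 1 did not pass (0.085). Its probes thus disagreed. The rest that rose were of the collagen Col1a2 (0.18 and 0.18), and without centring these were called lower (−0.25 and −0.25). The other listed genes there did not pass, with Mesp2, Tgfbi, Zeb1, Cdh11 and S100a6 at −0.11 to −0.023 and Pdgfrb at 0.066. On array design 1, 1 of 6 probes passed, a Sparc probe that rose by 0.42 ± 0.10 (SD, n = 5, limma adjusted p = 0.0282), while the other Sparc probe there was at 0.070 (limma adjusted p = 0.383). With the dye-profile trend removed 0 of these 6 passed, with the first Sparc probe at 0.29 (limma adjusted p = 0.0601). On array design 2 that step left 2 of the 15 past the threshold, Sparc at 0.27 and Col1a1 at 0.26, against 5.01% of all probes.

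A list of keratins, lamins, other intermediate filaments and the cytolinkers that bind filaments, related to Nes and Vim only in part, had 12 probes on array design 1, of which 0 passed, with a median of 0.095. Krt8, a keratin of surface epithelia, was nearest at 0.27 ± 0.16 (SD, n = 5, limma adjusted p = 0.0516). Without the incomplete readout 3 of the 12 rose and 1 fell, in a fit that called 781 probes higher and 443 lower of 7680. Those that rose were of Krt8 (0.22 and 0.20) and Krt18 (0.19), and the one that fell was Dst (−0.22). With the dye-profile trend removed 0 of the 12 passed. Of the 6 probes on array design 2, 1 was of a filament gene, Krt18, the partner of Krt8, and the other 5 were of the cytolinkers Plec, Macf1, Ppl and Dst. Krt18 rose (0.19 ± 0.25, SD, n = 5, limma adjusted p = 0.0432) but was called lower without centring (−0.23, limma adjusted p = 0.0319), and the desmosomal plakin Ppl fell (−0.18 ± 0.12, SD, n = 5, limma adjusted p = 0.0184). With the dye-profile trend removed neither passed, with Krt18 at 0.10 (limma adjusted p = 0.359) and Ppl at −0.0047 (limma adjusted p = 0.959). The tubulin and microtubule genes had a median of 0.20 over 22 probes on array design 1, of which 0 passed. Without the incomplete readout 6 of the 22 rose, in that fit with 781 probes called higher. With the dye-profile trend removed 1 of the 22 was called lower, against 0.781% of all probes called. It was Ckap5, at −0.31 (limma adjusted p = 0.0317), against −0.17 as fitted (limma adjusted p = 0.0666). On array design 2 the median was 0.10 over 11 probes, where 2 rose (both Tubb5) and 1 fell, against 19.8% and 8.07% of all probes. Without centring the medians were −0.078 on array design 1 and −0.33 on array design 2. The one that fell was Tbcd, a tubulin-folding cofactor, at −0.17 ± 0.07 (SD, n = 5, limma adjusted p = 0.0219), and with the trend removed it was at −0.053 and did not pass (limma adjusted p = 0.385).

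**Figure D4:**
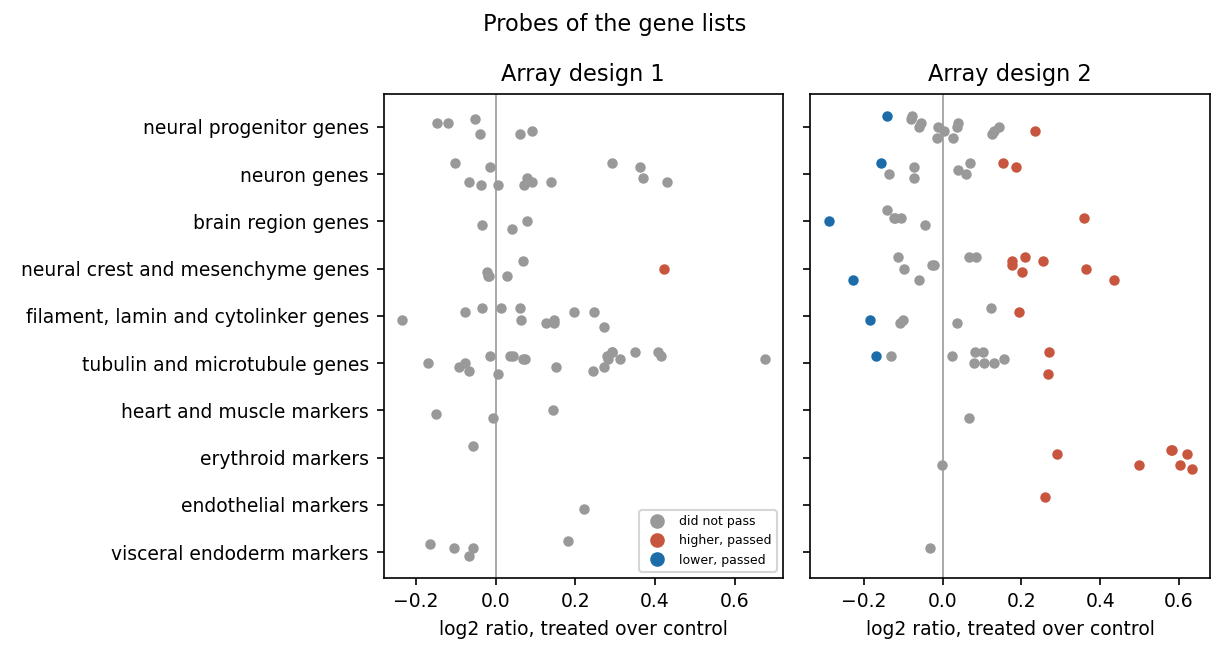
Mean log2 ratio of treated over control embryos of every probe of the gene lists, by array design, with red and blue for probes that passed a limma adjusted p of 0.05 as higher or lower and grey for the rest. Neural lists lie on both sides of 0 on both designs, and 7 of the 8 erythroid probes on array design 2 lie between 0.29 and 0.63.

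Markers of other cells of the embryo were read beside the neural ones. Of the 8 erythroid probes on array design 2, 7 rose, against 19.8% of all probes, all of them globin probes of 3 genes (4 of Hbb-y), from 0.29 to 0.63, with a list median of 0.58, while Alas2, which makes heme in red cells, was at −0.0018 and Gata1, the erythroid transcription factor on array design 1, was at −0.058 (limma adjusted p = 0.455). With the dye-profile trend removed 5 of the 8 passed, against 5.01% of all probes, with a list median of 0.30. Without centring 0 passed as higher, with a median of 0.15. The endothelial gene Cd34 rose by 0.26 ± 0.13 (SD, n = 5, limma adjusted p = 0.0017) but did not pass with the trend removed (0.11, limma adjusted p = 0.103), and Cdh5 on array design 1 was at 0.22 and did not pass (limma adjusted p = 0.0876). On array design 1, 0 of 3 probes of heart and muscle markers and 0 of 5 of visceral endoderm markers passed, against 0.651% of all probes. Array design 2 held 1 probe of each of these lists, and neither passed, against 27.8% of all probes. The part of these cells in the ratios of the neural markers was not tested.

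Slides carried numbers of series 2000 or series 3000, and the markers did not pass a test of the difference between them. Tubb3 averaged 0.42 in the 3 replicates of series 3000, against 0.26 in the 2 of series 2000, and Mapt averaged −0.19 against −0.039. Replicate 4, in series 3000, holds the incomplete readout. Without that readout replicate 4 went from 0.83 to 0.44 for Tubb3 and from −0.088 to 0.16 for Mapt, which narrows both gaps. The limma adjusted p of the difference was 0.999 for Mapt, Tubb3 and Otx2 and 1.00 for Nes on array design 1. For Vim it was 0.794, with a difference of −0.11.

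The probes most like each marker were found by the root mean square difference of the 5 replicate ratios among the named probes of the same design. Nearest to Nes were Rcc1, Klhl2 and Pcmt1 (0.033, 0.035 and 0.040, against a median of 0.19 over all 4748). Nearest to Otx2 were Riok1, Gpatch2 and Kpna3 (0.023, 0.041 and 0.042, against 0.25). Nearest to Vim were Fam171b, Pes1 and Rad23b (0.024, 0.028 and 0.029, against 0.18 over 4854). Nearest to Tubb3 were Rpl3, Hnrnpm and Slc25a5 (0.051, 0.073 and 0.078, against 0.48), which encode a ribosomal protein, an RNA-binding protein and a mitochondrial carrier. Nearest to Mapt were Cacna1d, Pabpc4 and Arl14 (0.027, 0.042 and 0.049, against 0.25). These probes share arrays with the markers, and so their depth, dye and centring. On array design 1 the rankings include the incomplete readout and are not given without it. Without that readout the other beta-tubulin probes differed from Tubb3 by 0.022 to 0.13, against 0.15 to 0.70 with it.

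**Figure D5:**
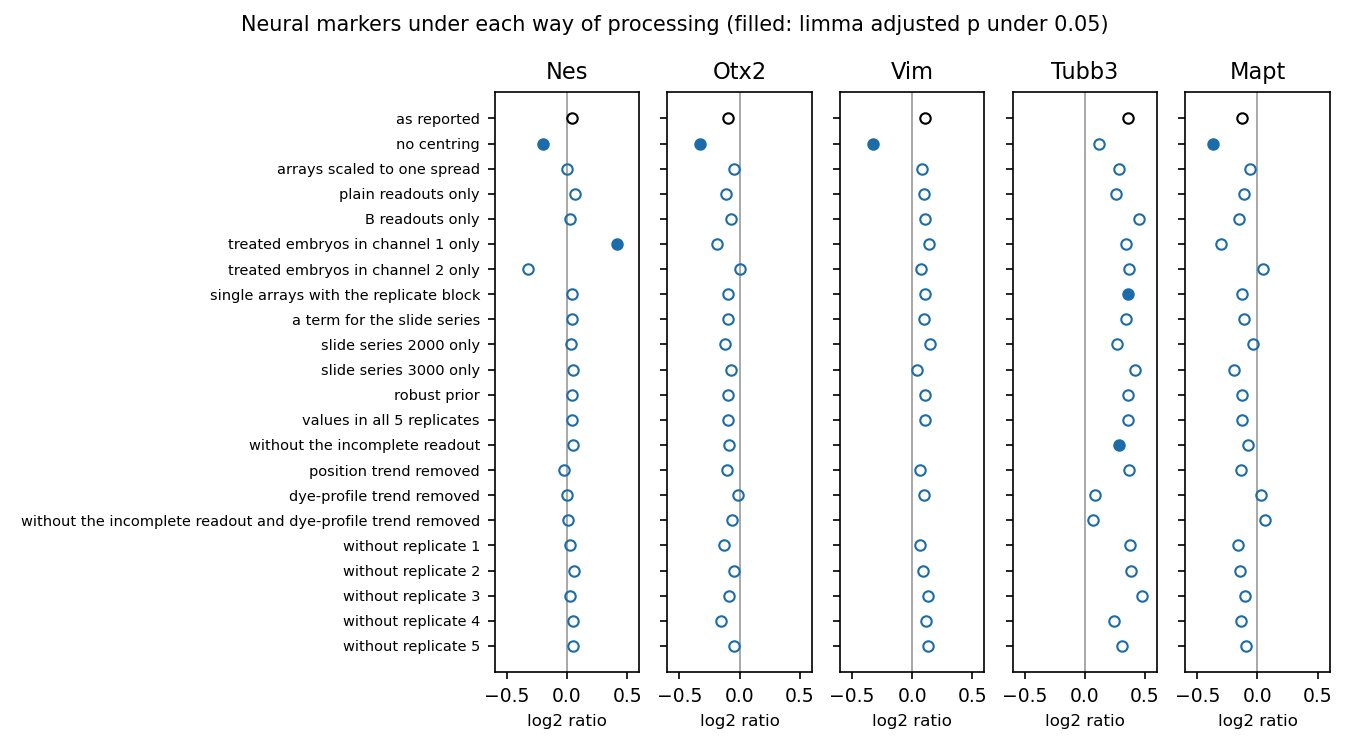
Log2 ratio of treated over control embryos of each neural marker under each way of processing, with filled points for a limma adjusted p under 0.05. Nes, Otx2, Vim and Mapt pass as lower without centring, Nes passes as higher with treated embryos in channel 1 alone, and Tubb3 passes as higher with the replicate block and without the incomplete readout.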

How the data were processed

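The deposited values are log ratios per spot of one channel over the other, taken as log2. The sources used here do not state the base, numerator, scanner, background correction or normalization. Channel 1 was taken as the numerator and channel 2 as the denominator, and every fold assumes base 2. Replicate number, array design, slide series and readout mark (plain or B, meaning not given) came from the sample titles, and the channel of the treated embryos from the source names.

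Probes were named through the platform annotation, and symbols were checked by gene identifier against the GRCm38.p6 gene table. Of the probes, 4749, 227 and 2704 on array design 1 and 4935, 275 and 2470 on array design 2 had 1, several and no symbols. Each array was centred on its median, control-over-treated arrays were turned, spots of one accession and readouts were averaged, and the mean of both orientations gave 1 value per replicate. The dye part is the same mean with no array turned. A two-sided test against 0 (limma 3.58.1 under R 4.3.3, with lmFit and eBayes) was fitted within each design over all probes with values in at least 3 replicates, p-values adjusted by Benjamini-Hochberg, and 0.05 as the threshold. It was tested on simulated data. The dye-profile trend, a smooth in 3 principal components of the dye part, was fitted per replicate with mgcv 1.9.3 (bases of 40 and 8); it took up 34.0% to 81.5% of a replicate's variance on array design 1 and 35.3% to 61.6% on array design 2.

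The markers and gene lists were chosen with earlier results of these data known. Named from each list are up to 4 probes with the smallest p in each direction and design among those past the threshold, and 1, by its p, where no probe passed. Other list genes, the erythroid, endothelial and trend-removed values among them, were chosen after their values were seen. The number of arrays limits the precision.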

Additional observations from a re-analysis of the deposited data

How the results depend on the processing

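The array medians set where 0 lies. Without centring, the median probe was at −0.24 on array design 1 and −0.41 on array design 2, 4615 and 6655 probes passed, 4596 and 6634 of them lower, and 3 markers on array design 1 (Nes at −0.20, Otx2 and Mapt) and 1 on array design 2 (Vim at −0.32) passed as lower. With treated embryos in channel 1 alone, 2324 and 1190 probes passed (1219 and 709 higher) and 1 marker, Nes. In channel 2 alone, 1108 and 117 passed (318 and 106 higher), Nes was at −0.33, Otx2 at 0.0047 and Mapt at 0.045. Nes was at −0.020 with the position trend removed and at −0.0020 with the dye-profile trend removed, where Mapt was at 0.027 and 381 probes passed on array design 2 (242 higher) and 60 on array design 1 (43 higher). With the replicate block on single arrays, 890 probes passed on array design 1 (684 higher, against 49 of 50) and 2844 on array design 2 (1747 higher), and 1 marker, Tubb3. Without the incomplete readout 1224 passed (781 higher) and 1 marker, Tubb3; with the trend removed too, a setting chosen after the data were seen, 120 passed (77 higher) and Mapt was at 0.060. On array design 1, 345 probes passed with arrays scaled to one spread, 501 (440 higher) with plain and 3 with B readouts, 12 with a term for the slide series and 3 in series 3000 alone. On array design 2, 1331 (1151 higher) passed scaled, 1076 (972 higher) with plain readouts and 811 (759 higher) in series 3000 alone. Leaving out each replicate gave 7 to 82 probes on array design 1 and 1013 to 2637 on array design 2, with 0 markers called throughout; without replicate 4, 82 passed, and without replicate 3, 7. Tubb3 then ran from 0.24 to 0.47, and over its 21 alternatives from 0.067 to 0.47, above 0 in each, with limma adjusted p from 0.0330 to 0.599. The cause of these shifts was not tested. Reading the ratio as channel 2 over channel 1 turns every sign and was not fitted separately.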
